A study of Mus musculus with 30 samples.

Results

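The comparison described here set lungs of Mem+Sol mice, which overexpressed TL1A in both its membrane-bound and its soluble form, against lungs of mice labelled WT. Its members were the 4 Mem+Sol and 5 WT columns of the lung table of gene counts, which are 9 of the 30 libraries of the series and 9 of its 14 lung libraries. The series sequenced poly-A RNA of 3 genotypes on the C57bl/6 background, taken from the post-caval lung lobe and from the terminal ileum. The remaining 5 lung libraries came from Mem mice, which overexpressed a membrane-restricted TL1A lacking residues 69 to 93, and they are used below only to place the Mem+Sol values. The label of the WT group also carries the words for TL1A expression driven by the CD2 promoter, a promoter active in lymphocytes, so the wording leaves unclear which genotypes that promoter describes. The labels give no age and do not state whether each library is a different mouse, so a p-value here reflects sample-to-sample spread that may be technical. Among the WT libraries, replicates 1 and 2 (a male and a female) were sequenced in batch 2 and replicates 3, 4 and 5 (2 males and a female) in batch 1. Among the Mem+Sol libraries, replicates 1 and 2 (both female) were sequenced in batch 1 and replicates 3 and 4 (a female and a male) in batch 2.

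TL1A is the protein of the Tnfsf15 gene, a member of the tumour necrosis factor (TNF) family that is made as a membrane protein and can be shed by cleavage of its stalk. It binds the receptor DR3, encoded by Tnfrsf25, on T cells and innate lymphoid cells and acts with the antigen receptor and other cytokines as a costimulus. In the lung this ligand and receptor are known for expanding regulatory T cells and for promoting type 2 inflammation, the programme of interleukin (IL) 4, IL-5 and IL-13 seen in allergy and worm infection.

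The 9 libraries held between 23.3 and 39.1 M (mega) counts, and the 10 most abundant genes took 6.78 to 8.93% of a library. Sex-linked genes matched the labelled sex in 14 of 14 lung libraries. Levels are given as CPM, counts scaled to a fixed library total, and changes as log2 fold change of Mem+Sol over WT ± standard error (SE), from edgeR's quasi-likelihood test with batch and sex as covariates and Benjamini-Hochberg adjustment over 15885 genes. The SE is not an output of that test and was derived from its log2 change and F statistic, so it is approximate. CPM do not account for gene length and are compared only within a gene. The defining genes of lung were abundant in both groups. Sftpc, the surfactant protein of alveolar type 2 cells, had a mean of 13559 CPM in WT and 15305 in Mem+Sol, and Scgb1a1, the secretoglobin of airway club cells, had 26410 and 28858 CPM.

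At an adjusted p under 0.05, 134 genes differed between Mem+Sol and WT lungs, which is 0.844% of the genes tested. Of these, 83 (0.523%) were higher and 51 (0.321%) were lower in Mem+Sol. The genes that rose did so by more than those that fell, with a median log2 change of 1.02 against -0.60, and 42 of the 83 but 5 of the 51 changed by over 2-fold. An unadjusted p under 0.05 was reached by 2623 genes. The CPM of the groups did not overlap for 577 genes (3.63%), with all Mem+Sol libraries above all WT libraries for 2.08% of genes and below them for 1.55%, and among the called genes this held for 62 of the 83 and 25 of the 51. The higher genes were led by 3 genes of one stretch of chromosome 5, by Tnfsf15 itself, by epithelial and macrophage genes of type 2 inflammation, and by genes of regulatory T cells. The call depended on single libraries for most genes: 10 of the 134 were called whichever of the 9 libraries was left out, namely Csn2, Tnfsf15, Ccl8, Clca3, Amtn, Ccr4, Atcay, Foxp3, Nnt and Ccl12. Without Mem+Sol replicate 4, the only male of its group, 10 genes were called in all, and without WT replicate 2 there were 22, without WT replicate 5 there were 50, and without Mem+Sol replicate 2 there were 500.

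Batch touches this comparison, because WT and Mem+Sol split unequally between batches. In batch 1 alone, where both Mem+Sol libraries were female, the higher genes had a median log2 change of 1.01 and 81 of 81 with a value kept their sign. In batch 2 alone their median was 0.96 and 82 of 82 kept their sign. The 51 lower genes all kept their sign in each batch, with medians of -0.50 in batch 1 and -0.66 in batch 2. The genes were called over these same libraries, so their kept signs and medians within a batch were largely fixed by that choice. They are descriptions and no separate support. Tested separately, batch 1 called 15 genes and batch 2 called 1207, with 8 and 78 of the 134 among them.

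The transgene's own product came first among the checks. Tnfsf15 (chr4:63724600-63745059, GRCm38.p6) stood at 8.56, 8.48, 9.91, 6.92 and 4.49 CPM in WT replicates 1 to 5. In Mem+Sol replicates 1 to 4 it stood at 79.4, 97.9, 61.5 and 70.4 CPM. Every Mem+Sol library was thus several times above every WT library. The change was 3.37 ± 0.20 (SE, adjusted p = 9.92e-07), and it was 3.90 in batch 1 and 2.95 in batch 2. Mem lungs lay between the groups, at 23.0, 23.7, 20.2, 20.8 and 24.5 CPM, and Mem+Sol exceeded Mem by 1.79 (adjusted p = 0.000533). Counts per gene do not separate reads of a transgene from reads of the mouse's own gene, nor the membrane form from the soluble form.

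The receptor gene Tnfrsf25 did not follow its ligand. It had 5.07 ± 0.463 CPM (SD, n = 5) in WT and 5.09 ± 0.346 CPM (SD, n = 4) in Mem+Sol, a change of -0.03 ± 0.11 (adjusted p = 0.916). Its sign turned to 0.01 without the sex term. In Mem it was higher, at 7.99 CPM, and Mem+Sol lay below Mem by -0.66 (adjusted p = 0.0151). Of 22 genes of the TL1A and DR3 pathway tested, from the adaptor Tradd and the TRAF proteins to the NF-kappaB subunits and its feedback inhibitors, only Tnfsf15 was called, and the list's median change was 0.02 beside 0.01 over all genes tested.

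**Figure D1:**
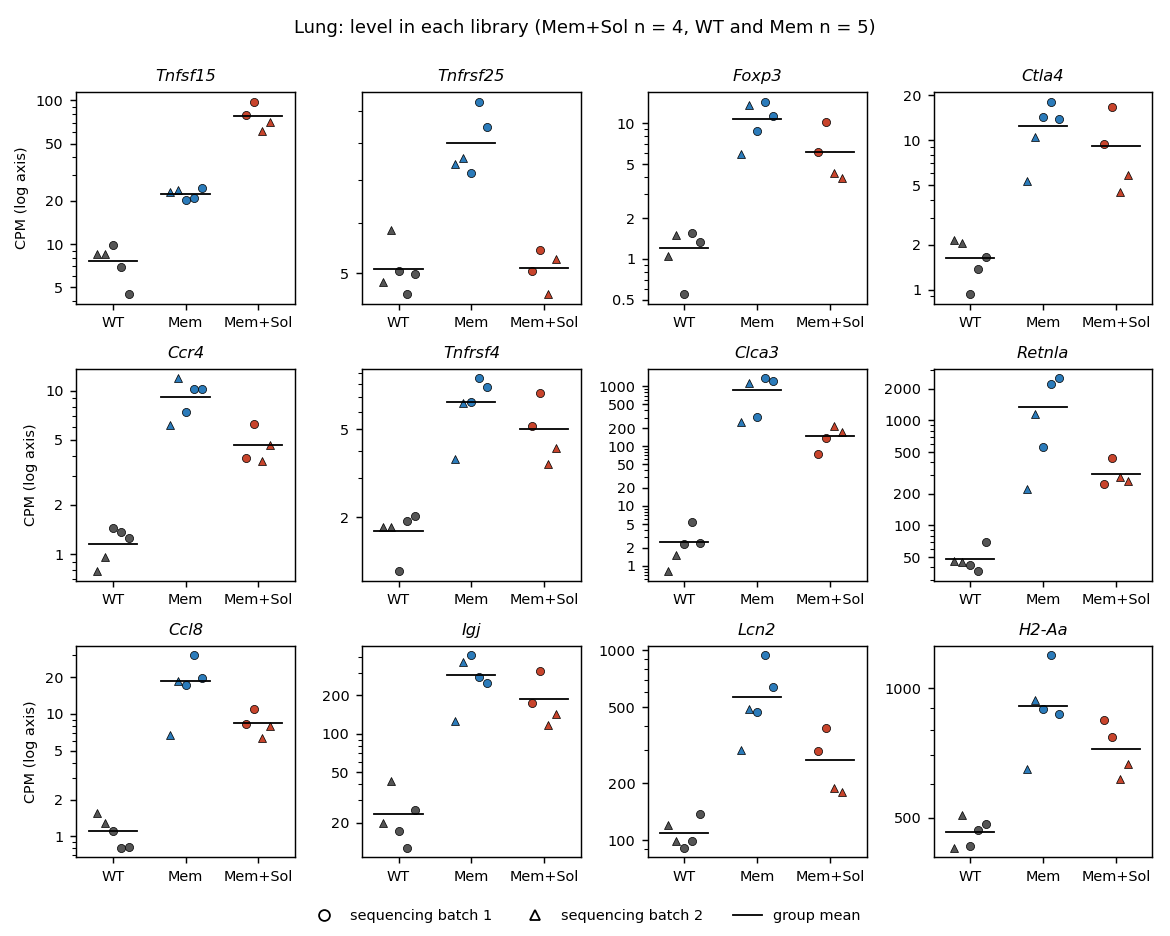
Level of 12 genes in each lung library, as CPM on a log axis, for WT, Mem+Sol and Mem; circles are batch 1, triangles are batch 2 and the bar is the group mean. Tnfsf15 in Mem+Sol (61.5 to 97.9 CPM) lies above WT (4.49 to 9.91 CPM) with no overlap, while Tnfrsf25 has about the same mean in both.

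The largest difference of the comparison was in Csn2, which encodes beta-casein, a milk protein of the mammary gland. Csn2 (chr5:87692619-87699429) had 0, 1, 0, 0 and 1 counts in WT replicates 1 to 5 and 4287, 13273, 3799 and 4937 counts in Mem+Sol replicates 1 to 4. It was present in all 4 Mem+Sol libraries, the male included, and near 0 in all WT libraries. Over the groups, CPM were higher by a ratio of 15600 with an exact 95% counting interval of 4310 to 129000, an interval that covers counting error only. The edgeR adjusted p was 3.67e-07, and the call was kept under each of the 19 alternative settings. Mem lungs held 4, 20, 5, 3 and 3 counts, and Mem+Sol exceeded them by a ratio of 861 (619 to 1240).

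A pair of neighbours on the same chromosome behaved alike; both were chosen after their values were seen. Csn3 (chr5:87925579-87932550), which encodes the milk protein kappa-casein, had 0 counts in all 5 WT libraries and 34, 73, 43 and 47 counts in Mem+Sol, at least 77.8-fold higher with 3 counts allowed over the WT group. Its adjusted p was 0.00253, and it was 0.0704 without Mem+Sol replicate 4. Amtn (chr5:88376108-88385916), which encodes the enamel protein amelotin, had 2, 2, 3, 0 and 0 counts in WT and 82, 152, 48 and 104 in Mem+Sol, a ratio of 65.3 (31.4 to 164). Its adjusted p was 0.000344 and stayed at or under 0.0359 with any 1 library left out. Both were also above Mem, whose 5 libraries held 2 counts of Csn3 and 11 of Amtn in all.

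The other genes of this stretch differed among themselves. Within 1 Mb of Csn2 the annotation lists 37 symbols, of which 9 had enough counts to be tested, 4 were higher (Csn2, Csn3, Amtn and Igj, a gene of antibody-secreting cells described below) and 0 were lower. Csn1s1 and Csn1s2a, which encode alpha-caseins, and Odam, an enamel-associated gene, had 0 counts in all 14 lung libraries, and Csn1s2b had 1 count each in WT and Mem+Sol. Ythdc1, a reader of methylated RNA, and Rufy3 changed by -0.08 and -0.01, and neither was called. Milk genes elsewhere in the genome did not follow: Lalba, which encodes alpha-lactalbumin, had 14 counts over the WT and 7 over the Mem+Sol libraries, Glycam1 had 6 and 8, and Wap, the whey acidic protein, had 1 count over all lung libraries. Xdh, which is abundant in milk-secreting epithelium and in other tissues, changed by 0.25 (adjusted p = 0.378).

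The same pair of caseins was read in the deposited ileum table, without a test. The 6 Mem+Sol ileum libraries held 110, 575, 844, 231, 302 and 62 counts of Csn2, against 2 counts over all WT ileum libraries. For Csn3 they held 136, 633, 877, 350, 270 and 27 counts, against 3 over WT. Amtn had 0 counts in those 6 libraries, so the third gene of the lung pattern was not detected there.

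**Figure D2:**
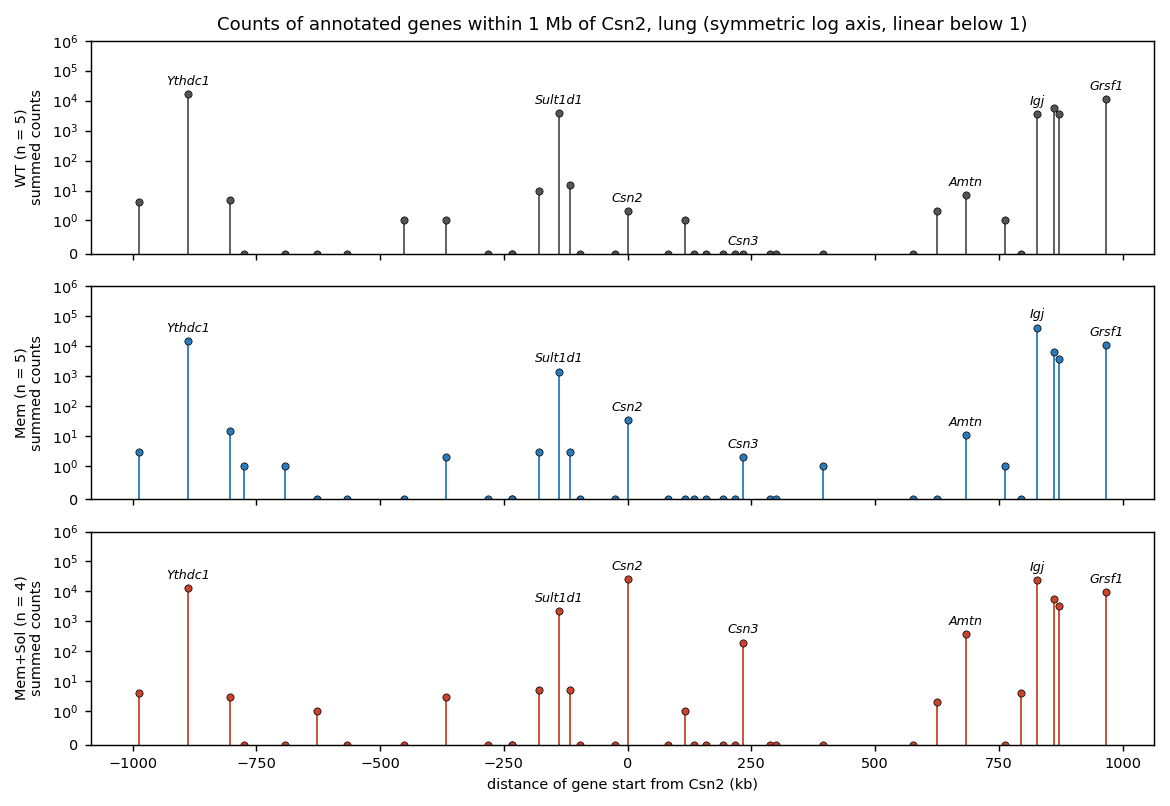
Summed counts per genotype of the annotated genes within 1 Mb of Csn2 in the lung, against the distance of each gene's start from Csn2 in kb; the count axis is logarithmic above its first step and linear at 0. Csn2, Csn3 and Amtn rise from 2, 0 and 7 counts in WT to 26296, 197 and 386 in Mem+Sol, while Csn1s1 and Csn1s2a stay at 0 in all genotypes.

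The windows around the start sites of 4 higher genes are printed: Csn2 and Amtn from the chromosome 5 stretch, Retnla from the type 2 genes and Ccl20 from the chemokines. The 4 genes and the patterns were chosen by hand. Csn3, Clca3 and Tnfsf15 changed more than Retnla and Ccl20 and are not printed. Each window runs from 250 bases before to 50 after the start, 5′ to 3′ on the gene's strand, from RefSeq on GRCm38.p6. Capitals mark every match to 3 letter patterns searched on both strands: TTCNNNGAA (STAT5-type), TTCNNNNGAA (STAT6-type) and GGGANNNNCC (kappaB-type). STAT5 acts below the prolactin receptor, STAT6 below the IL-4 receptor, and kappaB sites bind NF-kappaB, which TNF family receptors activate.
Csn2, chr5:87699376-87699675, minus strand: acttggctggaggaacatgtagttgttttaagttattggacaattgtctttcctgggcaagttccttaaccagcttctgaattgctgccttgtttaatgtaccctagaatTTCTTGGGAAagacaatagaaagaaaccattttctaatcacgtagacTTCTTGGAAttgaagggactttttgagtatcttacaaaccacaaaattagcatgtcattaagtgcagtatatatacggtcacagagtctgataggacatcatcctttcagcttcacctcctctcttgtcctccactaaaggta
Amtn, chr5:88375858-88376157, plus strand: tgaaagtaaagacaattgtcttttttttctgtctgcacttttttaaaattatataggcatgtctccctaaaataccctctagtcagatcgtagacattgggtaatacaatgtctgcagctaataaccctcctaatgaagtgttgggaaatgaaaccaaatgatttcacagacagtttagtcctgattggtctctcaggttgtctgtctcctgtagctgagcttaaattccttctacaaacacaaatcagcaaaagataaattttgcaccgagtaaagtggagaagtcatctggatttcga
Retnla, chr16:48842359-48842658, plus strand: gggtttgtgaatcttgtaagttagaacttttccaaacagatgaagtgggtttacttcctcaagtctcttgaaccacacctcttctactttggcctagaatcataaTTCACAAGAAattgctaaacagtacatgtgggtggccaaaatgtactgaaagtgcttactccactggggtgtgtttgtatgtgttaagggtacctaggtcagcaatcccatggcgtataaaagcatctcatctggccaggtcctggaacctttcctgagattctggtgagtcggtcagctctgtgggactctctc
Ccl20, chr1:83116516-83116815, plus strand: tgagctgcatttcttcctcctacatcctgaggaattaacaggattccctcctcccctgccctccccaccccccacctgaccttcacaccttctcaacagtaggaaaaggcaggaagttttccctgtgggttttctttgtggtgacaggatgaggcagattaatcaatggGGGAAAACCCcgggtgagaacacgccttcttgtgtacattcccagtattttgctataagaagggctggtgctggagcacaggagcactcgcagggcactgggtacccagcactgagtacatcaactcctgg
Csn2 has 2 matches, a STAT6-type one that begins at position -140 from the start and a STAT5-type one at -93. The Retnla match begins at -145 and is STAT6-type, and the Ccl20 match begins at -81 and is kappaB-type. Amtn has no match to any of the 3 patterns in its window. Such matches are common: the STAT5-type pattern is in 8.30% of 32851 windows, the STAT6-type in 6.95% and the kappaB-type in 20.7%. In the 15700 windows of genes tested here the shares were 7.10, 5.55 and 26.2%. Of the 83 higher genes 67 had a window, and their 80 windows held these patterns in 15.0, 8.75 and 23.8% of cases, so the kappaB-type share lay above that of all windows and below that of tested genes. Of the 51 lower genes 37 had a window, and the shares were 10.6, 2.13 and 21.3%. A match is a description of the letters and not a binding site.

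Genes of regulatory T cells, the FOXP3-expressing CD4 T cells that restrain immune responses, were called in part. Of 16 tested, 6 were higher, beside 0.523% of all genes tested, and 0 were lower. The others were not called. Of the 16 changes 14 were positive, beside 51.2% over all genes tested, with a list median of 0.90. All the called members but Foxp3 were also in another list, so they are not particular to these cells. The lists named here were chosen with earlier results of these data known, so their counts are descriptions. For each list below, the shares over all genes tested were 0.523% higher, 0.321% lower and 51.2% with a positive change. Foxp3 (chrX:7579676-7595243), the factor that defines these cells, stood at 1.05, 1.505, 0.551, 1.55 and 1.33 CPM in WT and at 6.12, 10.2, 4.29 and 3.92 CPM in Mem+Sol. The lowest Mem+Sol library was above the highest WT library. Its change was 2.11 ± 0.27 (adjusted p = 0.00287), with 2.53 in batch 1 and 1.72 in batch 2. In Mem, 13 of the 16 were called higher and 1 lower, with a list median of 1.53 over the same WT libraries. Foxp3 averaged 10.8 CPM in Mem and 6.13 CPM in Mem+Sol. The direct difference of -0.89 was not called (adjusted p = 0.0545).

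Ctla4, the inhibitory receptor that competes with CD28 for its ligands, had 2.14, 2.05, 0.932, 1.36 and 1.66 CPM in WT and 9.44, 16.9, 4.51 and 5.89 CPM in Mem+Sol. Its change was 2.27 ± 0.35 (adjusted p = 0.0114), and the batches gave 3.11 and 1.32. The groups did not overlap, and the Mem+Sol libraries of batch 1 were the higher ones. Ccr4, a chemokine receptor of regulatory and type 2 T cells, had 0.790, 0.958, 1.44, 1.36 and 1.25 CPM in WT and 3.87, 6.30, 3.70 and 4.64 in Mem+Sol, a change of 1.95 ± 0.23 (adjusted p = 0.00248). Its Mem mean was 9.19 CPM, and Mem+Sol lay below Mem by -0.98 (adjusted p = 0.0263). Tnfrsf4, which encodes the costimulatory receptor OX40, had 1.81, 1.81, 1.14, 1.91 and 2.02 CPM in WT and 5.17, 7.32, 3.48 and 4.11 in Mem+Sol, a change of 1.41 ± 0.21 (adjusted p = 0.00842). Klrg1 (1.21 ± 0.20), a receptor of differentiated lymphocytes, and Tnfrsf18 (0.59 ± 0.13), which encodes GITR, completed the 6. Without Mem+Sol replicate 4 only 2 of the 16 were called, Foxp3 and Ccr4, and Ctla4 and Tnfrsf4 then both had an adjusted p of 0.105. DESeq2 called 9 of the 16, adding Tnfrsf9, Ccr8 and Tigit. The summed level of the list ran from 119 to 138 CPM over WT and from 161 to 199 over Mem+Sol libraries. In bulk tissue, more cells of a type and more RNA per cell cannot be told apart.

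Broader T cell genes moved less. Cd4, the coreceptor of helper and regulatory T cells, rose from 10.7, 12.04, 8.69, 10.01 and 9.01 CPM in WT to 20.4, 26.0, 17.6 and 20.1 CPM in Mem+Sol, without overlap, by 0.95 ± 0.16 (adjusted p = 0.0181). It alone was called of 22 T cell identity genes by edgeR, while DESeq2 called 9, Cd3d, Cd3g, Cd5 and Lck among them, all higher. Of the 22 changes 20 were positive, beside 51.2% over all genes tested, with a median of 0.42. The Cd4 call was lost without WT replicate 2, WT replicate 5 or Mem+Sol replicate 4, with an adjusted p of up to 0.200. Of 15 T cell activation genes only Ctla4 was called by edgeR, with a median of 0.29, and DESeq2 called 5. Genes of cytotoxic and natural killer cells (0 of 13), B cells (0 of 14) and the interferon and type 1 response (0 of 25) had no call with edgeR, with medians of 0.32, 0.36 and 0.09. An unadjusted p under 0.05 was reached by 4, 1 and 3 of their members, and DESeq2 called 1, 0 and 1, the chemokine genes Ccl5 and Cxcl10. Cell cycle genes had 0 of 20 called in Mem+Sol against 18 of 20 in Mem, with medians of 0.17 and 1.08 over the same WT libraries. These 2 counts are no direct test between Mem+Sol and Mem, which is not given for this list. Over all genes tested, Mem against WT had 956 calls in batch 1 alone and 3 in batch 2 alone. In Mem+Sol 1 of the 20 had an unadjusted p under 0.05, and DESeq2 called 0.

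Of 23 genes of TNF family costimulation tested, 4 were higher, beside 0.523% of all genes tested, and 0 lower. The list median was 0.32, and 19 of the 23 had a positive change, beside 51.2% over all genes tested. The 4 were Tnfrsf4 and Tnfrsf18, counted above among regulatory T cell genes, with the ligands Tnfsf11 and Tnfsf8. Tnfsf11, which encodes RANKL, rose from 0.362, 0.547, 0.805, 0.552 and 0.434 CPM in WT to 1.99, 2.81, 0.996 and 1.60 CPM in Mem+Sol, by 1.83 ± 0.30 (adjusted p = 0.0119). Tnfsf8, which encodes CD30 ligand, rose from 2.40, 1.88, 1.74, 1.44 and 2.04 to 2.78, 5.16, 5.72 and 4.55 CPM, by 1.10 ± 0.21 (adjusted p = 0.0252). In both genes the lowest Mem+Sol library lay just above the highest WT library. None of the 4 was called without Mem+Sol replicate 4. The Tnfsf11 call was also lost without WT replicate 5 and the Tnfsf8 call without WT replicate 2 or 5, with adjusted p-values of up to 0.132 and 0.188 over the libraries left out.

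Genes that IL-4 and IL-13 induce in airway epithelium and macrophages were higher in 5 of 33 cases and lower in 0, with a list median of 0.75. Over all genes tested 0.523% were higher. Clca3, now named Clca1 (chr3:145004537-145032776), a secreted product of mucus-making goblet cells, stood at 0.823, 1.505, 2.33, 5.41 and 2.40 CPM in WT and at 73.3, 135, 214 and 170 CPM in Mem+Sol. Every Mem+Sol library was more than 10 times above every WT library. The change was 5.75 ± 0.69 (adjusted p = 0.00448), with 4.25 in batch 1 and 7.54 in batch 2. Mem lungs were higher still, at 253, 1154, 305, 1359 and 1210 CPM, although Mem+Sol against Mem did not pass the test (-2.39, adjusted p = 0.0533).

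Retnla, a resistin-like protein secreted by alternatively activated macrophages and epithelium, had 46.3, 45.0, 42.1, 37.0 and 69.3 CPM in WT and 248, 436, 292 and 263 CPM in Mem+Sol. The groups were well apart. Its change was 2.45 ± 0.43 (adjusted p = 0.0228), but leaving out WT replicate 2, 3 or 5 or Mem+Sol replicate 4 ended the call (adjusted p up to 0.247). Mem had 222, 1140, 558, 2235 and 2512 CPM, and Mem+Sol lay below Mem by -1.85 (adjusted p = 0.0452). Ccl8, a chemokine that attracts CCR8-bearing type 2 T cells, had 1.55, 1.30, 1.10, 0.810 and 0.817 CPM in WT and 8.31, 11.1, 6.32 and 7.90 in Mem+Sol, a change of 2.80 ± 0.34 (adjusted p = 0.00287). Mgl2, a lectin of dendritic cells and alternatively activated macrophages, changed by 1.02 ± 0.18 (adjusted p = 0.0181), and Chil1, a chitinase-like protein chosen after its values were seen, by 0.75 ± 0.14 (adjusted p = 0.0261). Against Mem, Mem+Sol was lower in Mgl2 by -0.74 (adjusted p = 0.0380) and in Chil1 by -0.73 (adjusted p = 0.0223).

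Other members of this programme did not pass the test, some of them well above WT in the mean. Chil4, a chitinase-like protein of airway epithelium, averaged 0.190 CPM over WT and 3.66 CPM over Mem+Sol libraries (adjusted p = 0.146), and Chil3, made by alveolar macrophages, averaged 353 and 1233 CPM (adjusted p = 0.140). The mucin Muc5ac changed by 1.01 and Arg1, the arginase of alternatively activated macrophages, by -0.04, neither called. The summed level of the list ran from 1964 to 2413 CPM over WT and from 3277 to 6170 over Mem+Sol libraries. Without WT replicate 5 or Mem+Sol replicate 4 edgeR called 2 of the 33, and DESeq2 called 11 on all libraries, Chil4 among them. The cytokine genes Il4, Il13 and Il9 had too few counts to be tested, and Il5 changed by 0.50 without a call. Of 17 genes of type 2 lymphocytes, edgeR called Ccr4 and Klrg1, with a list median of 0.41, and DESeq2 called 5, adding Il1rl1, Icos and Ccr8. Il1rl1, which encodes the IL-33 receptor, changed by 0.70 without a call by edgeR, and Gata3, the factor of type 2 lymphocytes, by 0.41 without a call by either tool. Of 5 eosinophil genes edgeR called 0, with a median of 1.14 and 3 at an unadjusted p under 0.05, and DESeq2 called 2, Prg2 and Rnase2a. Il33, an alarmin released by lung epithelium and stroma, averaged 125 CPM over WT and 135 CPM over Mem+Sol libraries (-0.03 ± 0.15, adjusted p = 0.937), a sign that turned to 0.24 in batch 1 alone.

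Chemokines and acute phase genes added 4 calls. Ccl20, a ligand of CCR6 made by epithelium, rose from 0.560, 0.068, 0.297, 0.074 and 0.791 CPM in WT to 5.10, 6.73, 0.996 and 2.10 CPM in Mem+Sol, by 3.14 ± 0.58 (adjusted p = 0.0261). The batch 1 libraries of Mem+Sol were the high ones, and its batch 2 libraries lay just above WT. Ccl12, a monocyte-attracting chemokine, rose by 2.11 ± 0.30 (adjusted p = 0.00570). These 2 of 15 inflammatory chemokines were called, and the list had a median of 1.03 with 14 of 15 changes positive. Over all genes tested 0.844% were called and 51.2% of changes were positive.

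Lcn2, lipocalin 2, an iron-withholding protein of inflamed epithelium and neutrophils, had 120, 98.9, 91.3, 98.8 and 138 CPM in WT and 294, 392, 188 and 179 CPM in Mem+Sol, a change of 1.07 ± 0.20 (adjusted p = 0.0278). Saa3, a serum amyloid A gene expressed in tissue, had 1.22, 1.03, 0.805, 1.22 and 2.63 CPM in WT and 7.98, 7.90, 2.77 and 3.61 CPM in Mem+Sol, a change of 1.73 ± 0.32 (adjusted p = 0.0264). Tnip3, a partner of the NF-kappaB inhibitor A20, rose by 1.41 ± 0.26 (adjusted p = 0.0228), a call that ended without WT replicate 2 or 5 or Mem+Sol replicate 4 (up to 0.239). In Lcn2 and Saa3 the groups were separate, and the Mem+Sol libraries of batch 1 were again above those of batch 2. Lcn2 and Saa3 were the 2 called of 12 acute phase and complement genes, beside 0.844% of all genes tested. Both were higher still in Mem. Against Mem, Mem+Sol was lower in Lcn2 by -1.12 (adjusted p = 0.0194) and in Saa3 by -1.46 (adjusted p = 0.0247). The calls of Ccl20, Lcn2 and Saa3 were each lost without WT replicate 2, 3 or 5 or Mem+Sol replicate 4, and those of Lcn2 and Saa3 also without WT replicate 4, with adjusted p-values of up to 0.186, 0.242 and 0.188. Neutrophil genes did not rise with them: 0 of 10 were called by edgeR or DESeq2, 3 had an unadjusted p under 0.05, and their median was -0.91. S100a9, a calprotectin subunit abundant in neutrophils, had 101 ± 60.1 CPM (SD, n = 5) in WT and 34.5 ± 9.10 CPM (SD, n = 4) in Mem+Sol.

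Of 8 genes of type 3 lymphocytes, the IL-17-producing T cells and innate lymphoid cells, only Ccr6, the receptor for Ccl20, was called. It had 3.72, 2.67, 5, 3.79 and 3.22 CPM in WT and 4.74, 8.89, 14.9 and 11.1 CPM in Mem+Sol, a change of 1.37 ± 0.29 (adjusted p = 0.0421). Mem+Sol replicate 1 fell within the WT range. The batches gave 0.89 and 2.00, and the call was lost without any of WT replicates 1, 2, 4 and 5 or Mem+Sol replicates 3 and 4 (adjusted p up to 0.247). Il17a, Il17f and Il22 had too few counts to be tested.

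Igj (now named Jchain, chr5:88519809-88527897), the chain that joins secreted IgA and IgM, was alone called of 12 plasma cell genes by edgeR, while DESeq2 called 3, with Mzb1 and Pigr. It had 19.9, 42.3, 17.2, 12.8 and 25.0 CPM in WT and 174, 311, 118 and 144 CPM in Mem+Sol, a change of 2.84 ± 0.37 (adjusted p = 0.00497). The groups were well apart, although leaving out Mem+Sol replicate 4 ended the call (adjusted p = 0.0738). Mzb1, a chaperone of antibody secretion, changed by 0.75 and Tnfrsf17, the plasma cell receptor BCMA, by 1.09, neither called by edgeR, and the list had a median of 0.41. The starts of Igj and Csn2 lie 827 kb apart, and in Mem, where Csn2 stayed at 35 counts in all, Igj was higher than WT by 3.56.

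Genes of antigen presentation to CD4 T cells rose by small amounts. Of 19 listed genes of the major histocompatibility complex (MHC) and its pathway 4 were called, all of class II: H2-Eb1 (0.66 ± 0.12), H2-Aa (0.58 ± 0.12), H2-Ab1 (0.58 ± 0.12) and H2-DMa (0.44 ± 0.09). Over all genes tested 0.523% were higher. In this list 18 of 19 changes were positive, beside 51.2% over all genes tested, with a median of 0.34. H2-Aa had 426, 507, 430, 469 and 483 CPM in WT and 842, 770, 616 and 666 CPM in Mem+Sol, without overlap (adjusted p = 0.0340). H2-Ab1 overlapped, at 374, 438, 430, 489 and 558 CPM in WT and 983, 754, 520 and 582 CPM in Mem+Sol (adjusted p = 0.0468). None of the 4 was called without WT replicate 2, WT replicate 5 or Mem+Sol replicate 4. Over all libraries left out the adjusted p reached 0.304 for H2-Aa and 0.243 for H2-Eb1. DESeq2 called 8 of the 19, also all higher. H2-M3, a class I gene outside the list, was also called higher by edgeR (0.36 ± 0.08, adjusted p = 0.0423). That call was kept in 2 of 9 fits with 1 library left out.

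Dendritic cells carry class II, and 2 of 15 of their genes were called, beside 0.844% of all genes tested, with a list median of 0.50. Cd209a, a lectin of monocyte-derived dendritic cells, had 6.72, 10.7, 7.29, 6.44 and 8.80 CPM in WT and 19.6, 24.8, 14.8 and 16.8 CPM in Mem+Sol, a change of 1.16 ± 0.16 (adjusted p = 0.00497). The groups were apart, and leaving out Mem+Sol replicate 4 ended the call (adjusted p = 0.0744). Mgl2, above, was the other, and its call ended without WT replicate 5 or Mem+Sol replicate 4 (up to 0.204). DESeq2 called 7 of the 15. Cd207, which encodes langerin of some dendritic cells and is in none of the lists, rose from 1.25, 1.61, 1.40, 0.479 and 2.19 CPM to 5.17, 7.04, 3.05 and 4.36 CPM, by 1.64 ± 0.33 (adjusted p = 0.0366), a call that ended without WT replicate 2, 3 or 5 or Mem+Sol replicate 4 (up to 0.304). The list's summed level ran from 287 to 330 CPM in WT and from 385 to 515 CPM in Mem+Sol libraries, and the part of a change in cell numbers in the class II values was not tested.

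**Figure D3:**
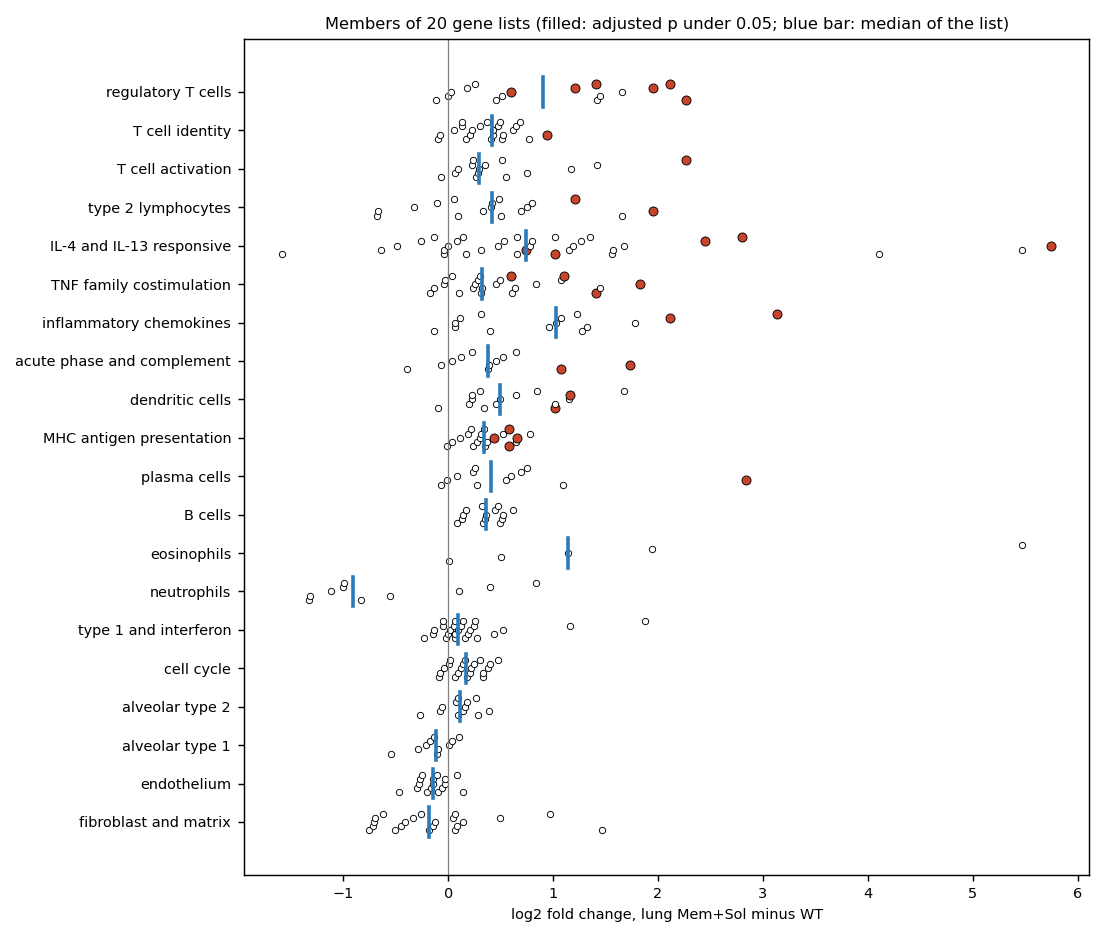
Log2 change of Mem+Sol over WT for the tested members of 20 gene lists; each point is a gene, filled where its adjusted p is under 0.05, and the blue bar is the list's median. Regulatory T cell genes hold 6 filled points of 16, IL-4 and IL-13 genes 5 of 33 and TNF family genes 4 of 23. Over all genes tested 0.844% were called.

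The lists of the lung's own structural cells held no gene called by edgeR. This held for airway secretory cells (0 of 13), ciliated cells (0 of 12), alveolar type 2 (0 of 12) and type 1 cells (0 of 10), endothelium (0 of 16), fibroblasts and matrix (0 of 21) and smooth muscle (0 of 10), with medians of 0.14, 0.09, 0.12, -0.12, -0.15, -0.18 and -0.30. With 0.844% of all genes tested called, lists of this size would often hold none. An unadjusted edgeR p under 0.05 was reached by 4, 2, 2, 2, 3, 7 and 5 members, in the same order. Over all genes tested it was reached by 2623 of 15885. DESeq2 called Scgb3a1 higher and Npnt lower. Positive changes made up 9 of 13, 8 of 12, 9 of 12, 3 of 10, 2 of 16, 8 of 21 and 1 of 10. Over all genes tested the share was 51.2%. Outside the lists, edgeR called Smtn (-0.56, adjusted p = 0.0142), Tnxb (-0.59, adjusted p = 0.0318) and Lama4 (-0.48, adjusted p = 0.0366) lower. Those calls were kept in 6, 5 and 3 of 9 fits with 1 library left out. Lama1 and Adamts1, also lower, are described below. The values of abundant genes of these lists, none called by edgeR, were as follows. The club cell enzyme Cyp2f2 changed by -0.16, the ciliated cell genes Tppp3 and Foxj1 by 0.13 and -0.12, the endothelial genes Cdh5 and Pecam1 by -0.29 and -0.11, the stromal genes Sparc and Inmt by -0.41 and 0.14, and the smooth muscle genes Mylk and Acta2 by -0.31 and -0.29. Alveolar macrophages (0 of 14, median 0.25) and other monocytes and macrophages (0 of 17, median 0.44) also had no call by edgeR. In these lists 13 of 14 and 15 of 17 changes were positive, beside 51.2% over all genes tested. An unadjusted p under 0.05 was reached by 3 of 14 and 11 of 17 members. Over all 28 lists with no call by edgeR, 66 of 302 members had an unadjusted p under 0.05 and DESeq2 called 10 higher and 1 lower. Of those, 5 were in the list of monocytes and macrophages: Ccr2, Emr1, C1qa, C1qc and Folr2, chosen after their values were seen. Among tissues that a lobe may carry along, cardiac and skeletal muscle genes ranged in summed level from 310 to 508 CPM in WT and from 186 to 536 CPM in Mem+Sol, and thymocyte, adipose, mesothelial, platelet and gut epithelial lists had 0 calls. Their most abundant members, and those of other uncalled lists, changed by -0.38 (Actc1, heart muscle), -0.45 (Plin4, fat), 0.30 and 0.20 (Themis and Ccr9, thymocytes), 0.11 (Krt19, mesothelium), 0.80 and 0.50 (Ppbp and Pf4, platelets), -0.52 (Lgr5, gut epithelium), 0.16 (Alox5, tuft cells) and -0.39 (Nr1d1, circadian clock). In immune lists without a call the values were 0.18 (Csf1), 0.44 (Gzma), 0.49 and 0.45 (Cd79b and Cd22, B cells), -0.12 (Kit, mast cells) and 0.40 (Ltf, neutrophils). In the list of red blood cell genes 4 members, the globins, had 0 counts in the table.

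Of the 51 genes that fell, only Dnajb1 was in a list, as 1 of 14 immediate early and stress genes. The lists held 520 tested symbols, and 0.321% of all genes tested were lower, so 1 listed gene lies near that share. Cd163l1 (chr7:140197218-140231145), a scavenger receptor best known on gamma-delta T cells, fell furthest. It had 3.56, 3.04, 2.54, 4.05 and 6.74 CPM in WT and 1.16, 0.617, 0.747 and 0.564 CPM in Mem+Sol. All 4 Mem+Sol libraries were below all WT libraries, and below all Mem libraries (4.12, 2.99, 12.3, 13.4 and 10.2 CPM). The change was -2.37 ± 0.37 (adjusted p = 0.0114) against WT and -3.30 (adjusted p = 0.00141) against Mem, with -2.59 in batch 1 and -2.31 in batch 2. The call against WT was lost without WT replicate 2 or Mem+Sol replicate 4 (adjusted p up to 0.0744).

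Lama1, a laminin chain of basement membranes, had 3.26, 2.63, 4.15, 3.20 and 4.57 CPM in WT and 1.49, 1.11, 1.62 and 1.03 CPM in Mem+Sol, a change of -1.40 ± 0.25 (adjusted p = 0.0228). Cd59a, an inhibitor of complement lysis, had 29.8, 26.6, 28.5, 27.3 and 27.8 CPM in WT and 20.2, 19.1, 12.4 and 10.2 CPM in Mem+Sol, a change of -0.87 ± 0.15 (adjusted p = 0.0197). The Cd59a values of WT spanned little, and the batch 2 libraries of Mem+Sol were the low ones (-0.45 in batch 1 and -1.31 in batch 2). Nnt (chr13:119335527-119409257), a mitochondrial enzyme that makes NADPH, had 68.5, 73.0, 80.5, 68.9 and 76.0 CPM in WT and 52.3, 50.8, 43.5 and 47.4 CPM in Mem+Sol, a change of -0.60 ± 0.08 (adjusted p = 0.00291). Nnt was chosen after its values were seen, as the only lower gene called whichever library was left out. Its Mem level was 68.5 CPM, and Mem+Sol lay below Mem by -0.50 (adjusted p = 0.00935). Arhgap28 had 38.4, 36.8, 32.2, 26.6 and 39.9 CPM in WT and 21.5, 20.8, 22.7 and 21.3 CPM in Mem+Sol, a change of -0.75 ± 0.11 (adjusted p = 0.00737). The Arhgap28 call ended when Mem+Sol replicate 4 was left out (adjusted p = 0.0744), the Cd59a call without that library or WT replicate 2 (up to 0.144) and the Lama1 call without those or WT replicate 5 (up to 0.188).

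Dhrs9, a retinol dehydrogenase (-1.27 ± 0.26), Lzts1 (-0.997 ± 0.21), Sync, a protein of muscle filaments (-0.82 ± 0.18), and Mex3a, an RNA-binding protein (-0.82 ± 0.17), also fell. The groups overlapped for Dhrs9 and Lzts1, and each of these 4 calls was lost without any of WT replicates 1 and 4 and Mem+Sol replicates 1 and 4, and without others (adjusted p up to 0.255, 0.321, 0.269 and 0.304).

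Several other lower genes were set apart by the WT libraries of batch 2. Dnajb1, a heat shock cochaperone, had 105 and 169 CPM in WT replicates 1 and 2, 49.7, 65.0 and 55.2 CPM in WT replicates 3 to 5, and 43.7, 40.2, 61.2 and 56.2 CPM in Mem+Sol. Its change was -0.90 ± 0.15 (adjusted p = 0.0128), with -0.46 in batch 1 and -1.18 in batch 2. Bcl6b, a transcriptional repressor, had 81.7 and 107 CPM in WT replicates 1 and 2, 37.3, 46.9 and 30.0 in WT replicates 3 to 5, and 21.9, 20.003, 40.5 and 28.2 CPM in Mem+Sol. Its groups overlapped, and its change of -1.10 ± 0.22 (adjusted p = 0.0401) was -0.38 in batch 1 and -1.46 in batch 2. Adamts1, a secreted matrix protease, had 329 and 375 CPM in WT replicates 1 and 2, 201, 203 and 195 CPM in WT replicates 3 to 5, and 110, 110, 216 and 178 CPM in Mem+Sol, a change of -0.81 ± 0.16 (adjusted p = 0.0289). In all 3 genes the Mem+Sol libraries of batch 2 were above those of batch 1 but below the WT libraries of batch 2. The Mem libraries of batch 2 were high as well, with 358 and 310 CPM of Adamts1 and 83.3 and 81.2 CPM of Bcl6b in Mem replicates 1 and 2. Dusp8, a phosphatase of stress kinases (-1.03 ± 0.21), Tnfrsf10b, a TRAIL receptor (-0.84 ± 0.17), Fat4, a giant cadherin (-0.81 ± 0.13), and Stc1, stanniocalcin 1 (-0.72 ± 0.15), had the same highest libraries. The calls of Dnajb1 and Fat4 were lost without WT replicate 2 or Mem+Sol replicate 4 (adjusted p up to 0.116 and 0.118), and those of Bcl6b, Dusp8, Adamts1, Tnfrsf10b and Stc1 were also lost without those and others (up to 0.275, 0.298, 0.247, 0.298 and 0.304). The stress genes Hspa1a and Hspa1b, which encode inducible HSP70, changed by -1.54 (adjusted p = 0.0621) and -1.60 (adjusted p = 0.0633) and were not called. The part of tissue handling or batch in these decreases was not tested.

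**Figure D4:**
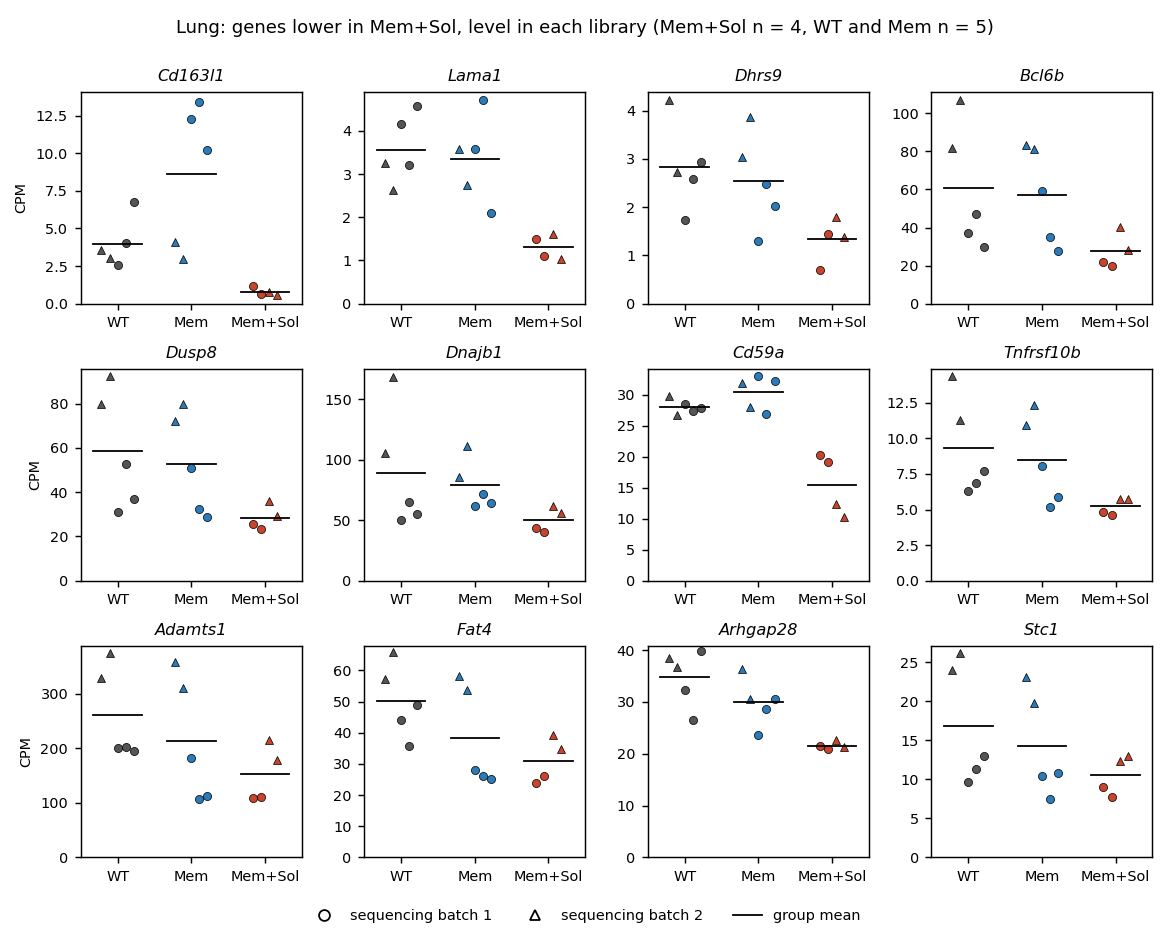
Level of 12 lower genes in each lung library, as CPM on a linear axis from 0; circles are batch 1, triangles are batch 2 and the bar is the group mean. Cd163l1 is at 0.564 to 1.16 CPM in the Mem+Sol libraries, while in Bcl6b, Dusp8 and Dnajb1 the WT libraries of batch 2 are the high ones.

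Beside the Mem lungs, which share the WT libraries as controls, the higher and the lower genes of Mem+Sol differed in kind. Of the 83 higher genes, 68 were also called higher in Mem, where 6.41% of all genes were, and 0 were called lower. Their median change was 1.02 in Mem+Sol and 1.29 in Mem, and the change was larger in Mem for 55 of the 83. Of the 51 lower genes, 12 were also called lower in Mem, where 3.05% of all genes were, and the medians were -0.60 and -0.23. Tested directly between the transgenic groups, 12 of the 83 were higher in Mem+Sol than in Mem and 9 were lower, and 18 of the 51 were lower in Mem+Sol than in Mem. In that direct test 355 genes were called, or 2.23%. Against WT, Mem had 1503 calls (9.46%) and Mem+Sol had 134, an order that turned in batch 2 alone, with 3 and 1207 calls.

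Mem+Sol exceeded Mem most in Csn2, Csn3 and Amtn. Among named genes with a mean log2 CPM of at least 1, Tnfsf15 followed Csn2, and then came Ankrd63 (1.38, adjusted p = 0.0279), Fank1 (1.26, adjusted p = 0.0210) and Klhl29 (1.22, adjusted p = 0.00935). Klhl29 had 12.2, 16.2, 12.2, 9.42 and 11.0 CPM in WT, 25.5, 31.1, 19.8 and 19.9 CPM in Mem+Sol and a mean of 10.0 CPM in Mem. Mem+Sol did not overlap WT, where its edgeR adjusted p was 0.0436. That call against WT was kept in 2 of 9 fits with 1 library left out (adjusted p up to 0.188). Under the same limit Mem+Sol was below Mem most in Fbp1, a gluconeogenic enzyme (-4.70, adjusted p = 0.0263), in Chil4 (-4.20, adjusted p = 0.0284), in Rnase2a, an eosinophil-associated ribonuclease (-3.60, adjusted p = 0.0260), in Ccl24, an eosinophil-attracting chemokine (-3.52, adjusted p = 0.0260), and in Mmp12, the elastase of macrophages (-3.43, adjusted p = 0.0278). Mmp12 ranged from 3.70 to 6.64 CPM in WT, from 6.19 to 37.3 CPM in Mem+Sol and from 32.1 to 582 CPM in Mem, with an overlap between the transgenic groups. Each of these 5 calls was lost without Mem replicate 2 or Mem+Sol replicate 3, and some also without Mem+Sol replicate 1 or 2, with adjusted p-values of up to 0.109. The Ankrd63 and Fank1 calls were lost without Mem replicate 2 or Mem+Sol replicate 4, among others for Ankrd63 (up to 0.109 and 0.0668).

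**Figure D5:**
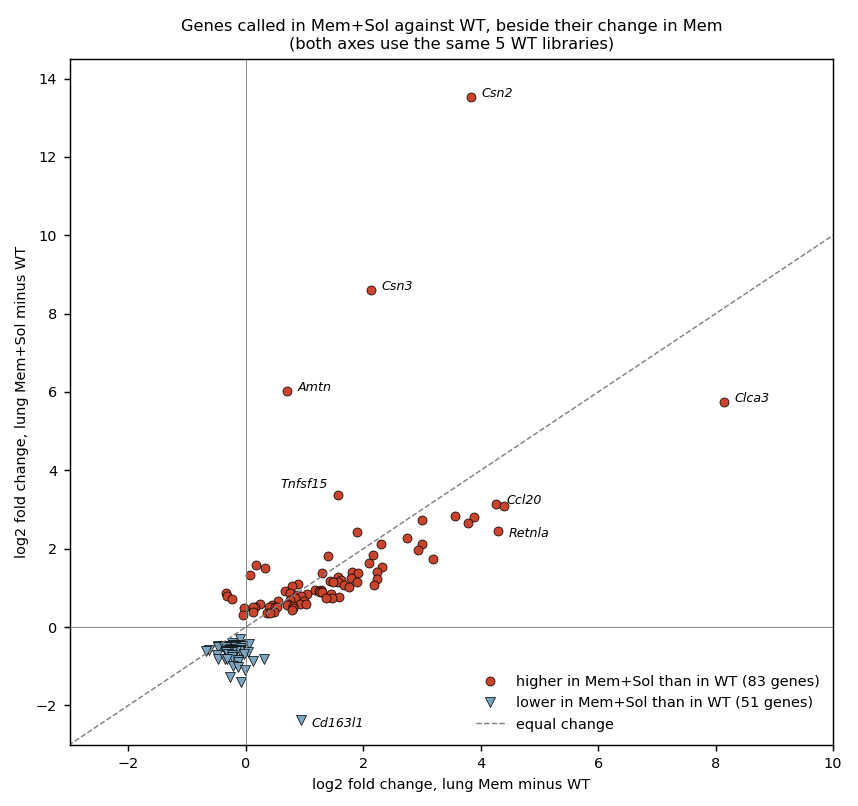
Log2 change over WT of the 134 genes called in Mem+Sol, with Mem on one axis and Mem+Sol on the other; the dashed line marks equal change, and the WT libraries are shared. Csn2, Csn3 and Amtn lie far on the Mem+Sol side, and 55 of the 83 higher genes lie on the Mem side of the line.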

How the data were processed

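The analysis started from whole-number read counts per gene symbol in the lung table deposited by the authors (24062 symbols, 20842 with a count). Per the submitters' processing notes, CASAVA called bases and TopHat2 aligned reads to mm10. The sources used here name no counting tool, annotation or strand, so overlapping, antisense and near-identical genes may share reads. Per the labels' protocols, tissue went into RNAlater, poly-A RNA was selected, and Nugen Ovation libraries were sequenced in 3 batches. Counts were filtered with filterByExpr, scaled by TMM and tested with edgeR 4.0.16 in R 4.3.3 (quasi-likelihood, robust), with genotype, batch and sex, over all 14 lung libraries (9 residual degrees of freedom, biological coefficient of variation 0.13) and Benjamini-Hochberg adjustment at 0.05. On simulated counts, 48% of genes changed by 0.5 (log2) were recovered, 94% at 1, 96% at 2 and 100% at 3.5, with 10 false among 179 calls. Those counts held no batch, sex or other library effect, so they were more regular than the data. The shares therefore do not show that an uncalled gene was unchanged. In the data Rnase2a changed by 5.47 and was not called (edgeR adjusted p = 0.076). No pair of libraries of one genotype was as alike as sampling noise. The members and the 42 lists (567 symbols, 565 matched, 8 by synonym, 520 tested) were chosen with earlier results of these data known. Named were Tnfsf15 and Tnfrsf25, the 15 largest and 15 smallest called changes whose mean log2 CPM reached 1 (skipping antigen receptor segments and unnamed gene models), up to 4 called members a list by adjusted p, the 2 most abundant of a list with none, and 5 a direction against Mem. Genes named outside it, and the ileum counts, were chosen with their values in view. Alternatives were DESeq2 1.42.0, RLE scaling, no filter, no sex or batch term, a replicate block, 2 genotypes only, females only, each batch alone and each library left out. The result of 1 gene that the rule named is not reported here.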

Additional observations from a re-analysis of the deposited data

Results flagged for a closer look

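Among the named genes, 15 of 220 groups (6.82%) held a library that stood apart from the rest of its group, its gap to the nearest being large against the group's range (Dixon's criterion, which by chance picks about 1 in 20 groups). In Mem+Sol, replicate 2 was that library for Csn2 (409.7 CPM, the others 118.2 to 154.8), Tnip3 (5.865, the others 3.92 to 4.044), Mrc1 (181.7, the others 103.8 to 114.2) and Scgb1a1 (24050, the others 30170 to 30770). Replicate 4, the only male, was it for the Y-linked Ddx3y (138.8 CPM). In WT, replicate 5 stood apart for Retnla (69.27 CPM, the others 36.96 to 46.32), Saa3 (2.629), Gata2 (313.1) and Emp2 (1268). WT replicate 4 did so for Bpgm (73.03), Alas2 (65.74) and Vil1 (1.583), WT replicate 3 for Tnfrsf4 (1.144) and Scgb1a1 (22090), and WT replicate 2 for Rnase2a (0.103). Even with these libraries in, the Csn2, Retnla, Saa3, Tnip3 and Tnfrsf4 groups did not overlap between WT and Mem+Sol.

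Outside the lung comparison, the ileum table held counts of casein genes in Mem+Sol above its control libraries: 2124 counts of Csn2 against 2 over WT, a ratio of CPM of 378 (exact 95% counting interval 105 to 3120), and 2293 counts of Csn3 against 3, a ratio of 272 (93 to 1320). Mem ileum held 2 and 6 counts. No test was made on these.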

How the results depend on the processing

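Of the 134 genes called between Mem+Sol and WT, all kept their direction in each alternative that gave them a value. The alternatives reused the libraries that chose the genes, so a kept direction was largely fixed in advance. The number of calls moved widely. The number was 147 with RLE scaling, 169 without the filter and 118 with only the 2 genotypes. It was 634 with DESeq2 (133 of the 134 among them, with 50.9% of its calls higher beside 61.9%), 243 without the sex term, 18 without the batch term (94.4% higher), 15 in batch 1 (93.3% higher), 1207 in batch 2 (44.9% higher), 9 in females, and from 10 to 500 with 1 library left out. Mem+Sol against Mem had 355 calls, and 979 with DESeq2, 143 without sex, 34 without batch, 33 with 2 genotypes, 21 in batch 1, 1677 in batch 2, 34 in females and from 30 to 648 with 1 library left out. Mem against WT had 1503 calls, and 524 without batch, 956 in batch 1, 3 in batch 2, 274 in females and from 627 to 2006 with 1 library left out. The cause was not tested. Same-numbered Mem+Sol and WT libraries never shared a batch, and the main fit did not use replicate numbers as pairs. The correlations of their deviations were -0.421, 0.035, -0.0202 and -0.1 with batch left in, which opposite batches can lower. With batch and sex fitted they were 0.203, 0.0347, 0.0871 and -0.0582. Only Mem+Sol replicate 1 was then most like the WT library of its own number. These values do not settle whether the numbers mark pairs. With the replicate block the fit called 68 genes, 47 of them among the 134, and the log2 changes turned to Siglec5 -0.042, Ager -0.077, Mki67 -0.071 and Myh6 0.00036.

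Among the named genes, those whose sign turned were all uncalled between Mem+Sol and WT. Without the sex term, the log2 changes turned to Tnfrsf25 0.0088, Il33 0.10, Siglec5 -0.0071, Ager -0.062, Xist 0.49 and Ddx3y -2.17. With only the 2 genotypes in the fit, the log2 changes turned to Il33 0.0070, Siglec5 -0.054 and Tef 0.033. In batch 1 alone, the log2 changes turned to Il33 0.24, Gata2 -0.046, Emp2 0.010, Tsc22d3 -0.23, Lipe -0.13, Alas2 -0.50 and Ddx3y -0.18. In females only, the log2 changes turned to Il33 0.059, Irf1 0.0026, Lyz1 -0.17, Emp2 0.0049, Mki67 -0.095, Tef 0.071, Tsc22d3 -0.28 and Lipe -0.090. In batch 2 alone, the log2 changes turned to Irf1 0.11, Siglec5 -0.17, Mrc1 -0.015, Lyz2 -0.043, Lyz1 -0.44, Sftpc -0.15, Sftpa1 -0.0018, Ager -0.029, Mcm6 -0.064, Mki67 -0.24, Dclk1 -0.20, Tef 0.22, Sgk1 -0.037, Myh6 0.24, Lipe -0.062 and Msln -0.12. Without the batch term, the log2 changes turned to Ager -0.0095, Tef 0.14 and Lipe -0.085. With 1 library left out, genes whose sign turned ranged as follows: Tnfrsf25 from -0.12 to 0.052, Il33 from -0.18 to 0.10, Irf1 from -0.11 to 0.045, Siglec5 from -0.068 to 0.17, Lyz1 from -0.087 to 0.23, Ager from -0.089 to 0.12, Mcm6 from -0.0067 to 0.20, Mki67 from -0.077 to 0.20, Tef from -0.12 to 0.049, Tsc22d3 from -0.24 to 0.11, Myh6 from -0.43 to 0.13 and Lipe from -0.080 to 0.16. Depth limits genes of few counts: Il4, Il13 and Il17a could not be tested.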
